A study of Homo sapiens with 6 samples.

Results

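The 50 genes described here act in the lysosome, the acidic compartment in which cells break down proteins, glycans and lipids. They comprise 12 peptidases, 9 enzymes of glycosaminoglycan breakdown, 5 of glycoprotein and glycogen breakdown and 10 genes of lipid breakdown and transport. The others are 7 membrane proteins and transporters, 3 subunits of the proton pump, the 3 transcription factors MITF, TFEB and TFE3, and GPNMB. They were chosen by name, and each was read by the probe set with exactly 1 listed gene that had the highest mean over the 6 arrays. All 50 were found among the 15277 genes measured, and 155 probe sets in all read them. Differences were tested with limma's empirical Bayes test across all genes, with Benjamini-Hochberg adjustment and a threshold of 0.05. No filter on low values was applied.

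RNA came from HFL-1, an established fibroblast line from human fetal lung. In both groups the cells were grown in F-12K medium with fetal bovine serum and transiently infected with a lentivirus in the presence of polybrene, so that infection itself is shared. One group of 3 arrays is labelled as cells overexpressing HYAL1, and the other group of 3 as cells infected with the control vector CON335. The time of RNA extraction after infection was not given in the sources used here. Sample titles call the replicates biological, whereas the methods of the study speak of triplicate measurements of each group. The origin of the replicates is therefore not settled, and each p-value measures only the spread between these samples, which may be technical. Values are log2 intensities after RMA, an array normalization that brings all arrays to 1 distribution, and a difference of 1 is a doubling.

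HYAL1, the hyaluronidase that the lentivirus carries and itself a lysosomal enzyme, went against the labels. Its log2 values were 4.81, 4.82 and 4.67 on the arrays labelled HYAL1 overexpression and 7.48, 7.49 and 7.46 on the arrays labelled control. Every value of one group lay below every value of the other (p = 0.10 in a two-sided exact permutation test, which cannot go lower with 3 arrays against 3). The difference was -2.71 (standard error 0.0455, adjusted p = 7.78e-07 from limma), and the lower group was below the background median. A supplementary table of the study also heads the same arrays the opposite way. The groups are therefore called HYAL1-labelled and control-labelled, all differences are HYAL1-labelled minus control-labelled, and which group carried the HYAL1 virus is not settled by the labels.

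Array medians lay between 6.97 and 7.01, and pairs of arrays had correlations of 0.998 to 0.999 over probe sets, which are not independent replicates. The 9 background probe sets, which match no human transcript, stood 0.02 to 0.14 higher in the HYAL1-labelled arrays. Their median per array lay between 6.69 and 6.90. By their names they differ in GC content, and their means in the HYAL1-labelled arrays ran from 4.52 to 11.2. This background median is therefore a reference level and not a limit of detection. With limma, 0 of 73 control probe sets had an adjusted p under 0.05, and 3 had an unadjusted p under it. Among the 50 lysosomal genes, CTSH, CTSS, IDUA, FUCA1 and NPC1 had lower means than this background median in both groups. The part of the background shift in the results was not tested. In bulk RNA a change in the number of cells of a type and a change in RNA per cell cannot be told apart.

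Lysosomal hydrolases are made in the endoplasmic reticulum, tagged with mannose 6-phosphate and carried to the lysosome, where the V-ATPase keeps the lumen acidic. MITF, TFEB and TFE3 belong to the MiT/TFE family of transcription factors. These factors bind E-box elements in the promoters of lysosomal genes and raise their expression when nutrients are scarce or lysosomes are loaded. GPNMB is a transmembrane glycoprotein of lysosomes, melanosomes and the cell surface, first described in melanoma cells, and is a well-known target of this family in macrophages, osteoclasts and melanocytes. In fibroblasts the same compartment takes up and degrades hyaluronan and collagen from the matrix.

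Of the 50 lysosomal genes, 2 passed the test, GPNMB and TPP1, and both were higher in the HYAL1-labelled arrays. Across all genes 1.66% passed, of which 0.445% lay on the HYAL1-labelled and 1.21% on the control-labelled side. At an unadjusted p under 0.05 the lysosomal genes numbered 15 higher and 5 lower in the HYAL1-labelled arrays, where 9.69% and 7.72% of all genes did so. In 25 of the 50 genes the 3 values of one group all lay above the 3 of the other, 18 toward the HYAL1-labelled and 7 toward the control-labelled arrays. For all genes the share of groups that did not overlap was 24.4%, made up of 14.1% and 10.3%. The median difference was 0.03 on the log2 scale for the 50 genes and 0.01 for all genes. The median size, leaving out the sign, was 0.08 against 0.05, and 18 of 50 (36.0%) differed by 0.1 or more, against 20.4% of all genes. The spread between arrays of one group had a median SD of 0.0377 for the 50 genes and 0.0541 for all genes. With the prior variance following the mean level, 12 of the 50 genes passed, 9 higher and 3 lower in the HYAL1-labelled arrays, beside 6.7% of all genes (2.81% and 3.89%). After median centring the calls were 2 higher and 2 lower, beside 59 and 214 of all 15277 genes. After renewed quantile normalization they were 3 higher and 2 lower, beside 108 and 249 of all genes. Without any 1 array GPNMB was the only one, beside 15 to 52 of all genes.

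**Figure D1:**
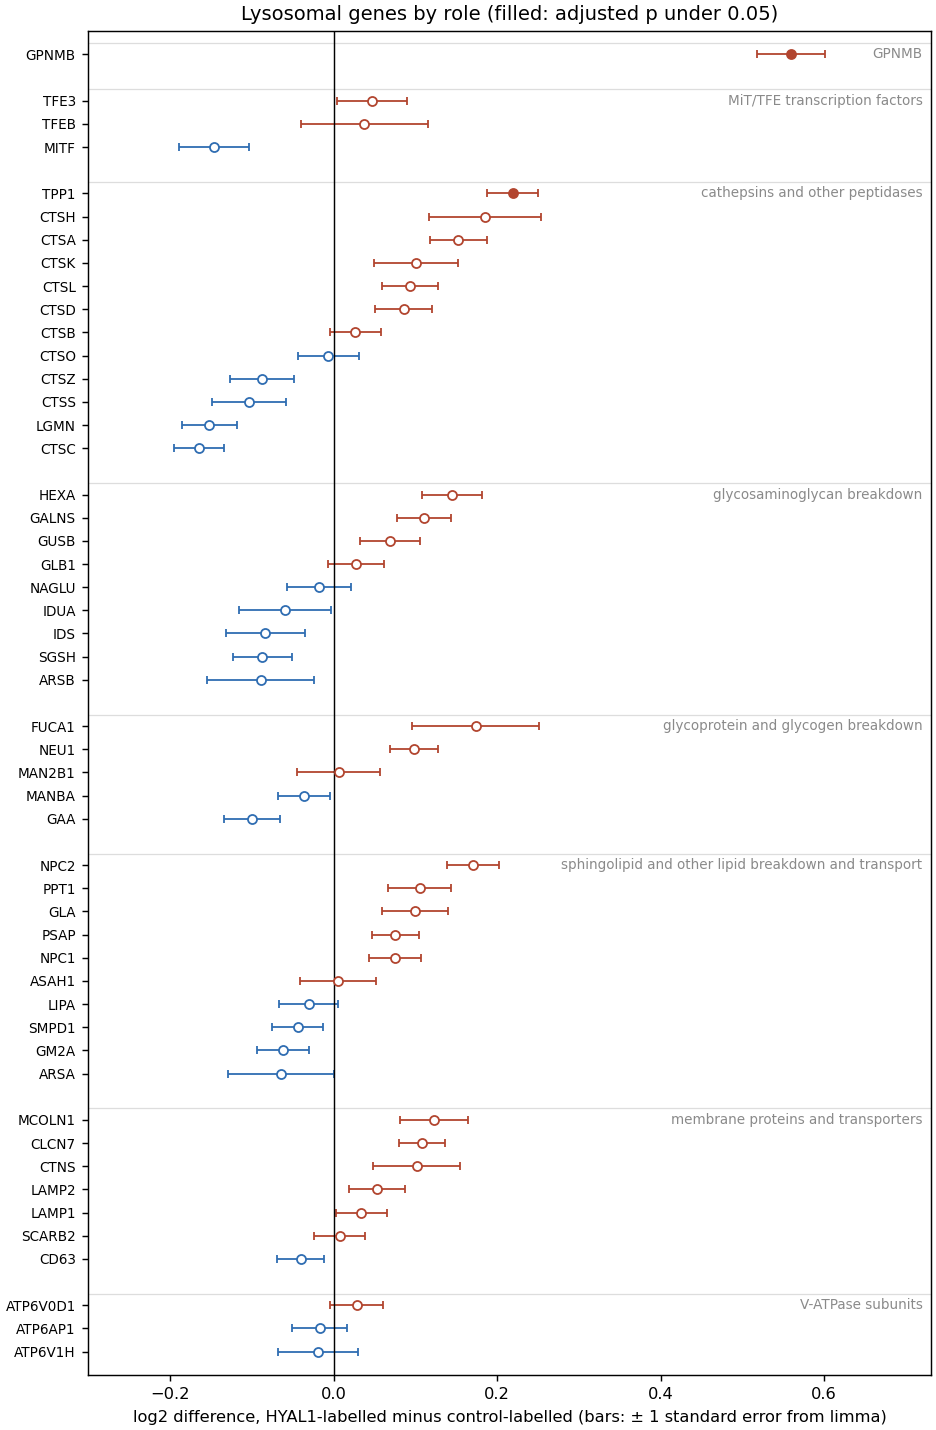
log2 difference (HYAL1-labelled minus control-labelled, horizontal axis) of each of the 50 genes with ± 1 standard error from limma, grouped by role; 3 arrays per group. Filled points passed at an adjusted p under 0.05, which holds for GPNMB at 0.56 and TPP1 at 0.22, while the others lay between -0.16 and 0.19.

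**Figure D2:**
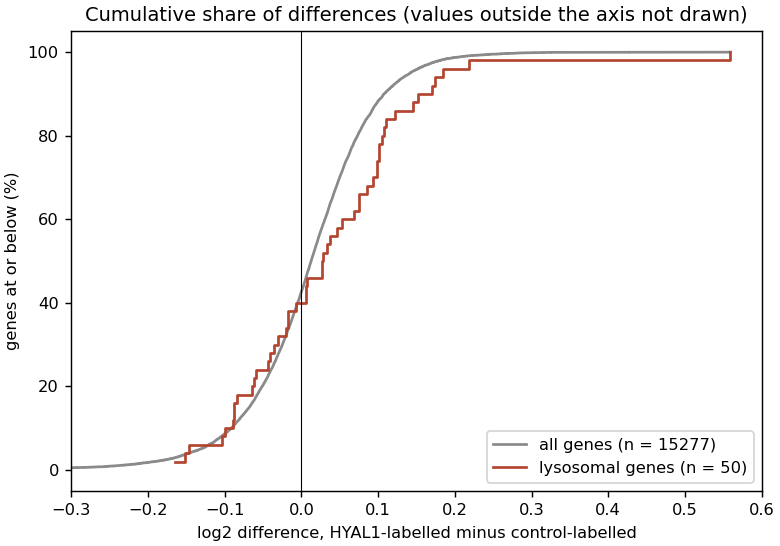
Share of genes (vertical axis, percent) at or below each log2 difference (horizontal axis), for the 50 lysosomal genes and for all 15277 genes. Above 0 the lysosomal curve runs to the right of the curve of all genes and below 0 mostly a little to its left, and 36.0% of the lysosomal genes against 20.4% of all genes differed by 0.1 or more in size.

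Across arrays, the median deviation of the 50 genes from their own means was 0.0085, 0.0065 and 0.022 on the HYAL1-labelled arrays and -0.035, -0.0063 and -0.0012 on the control-labelled arrays. Control-labelled replicate 1 was the lowest, with 14 of the 50 genes above their mean, and HYAL1-labelled replicate 3 the highest, with 37. Over all genes the median deviation of control-labelled replicate 1 was -0.011, also the lowest of the 6. Without this array CTSK differed by 0.05 in place of 0.10 and ARSB by -0.016 in place of -0.09, and neither passed with or without it.

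**Figure D3:**
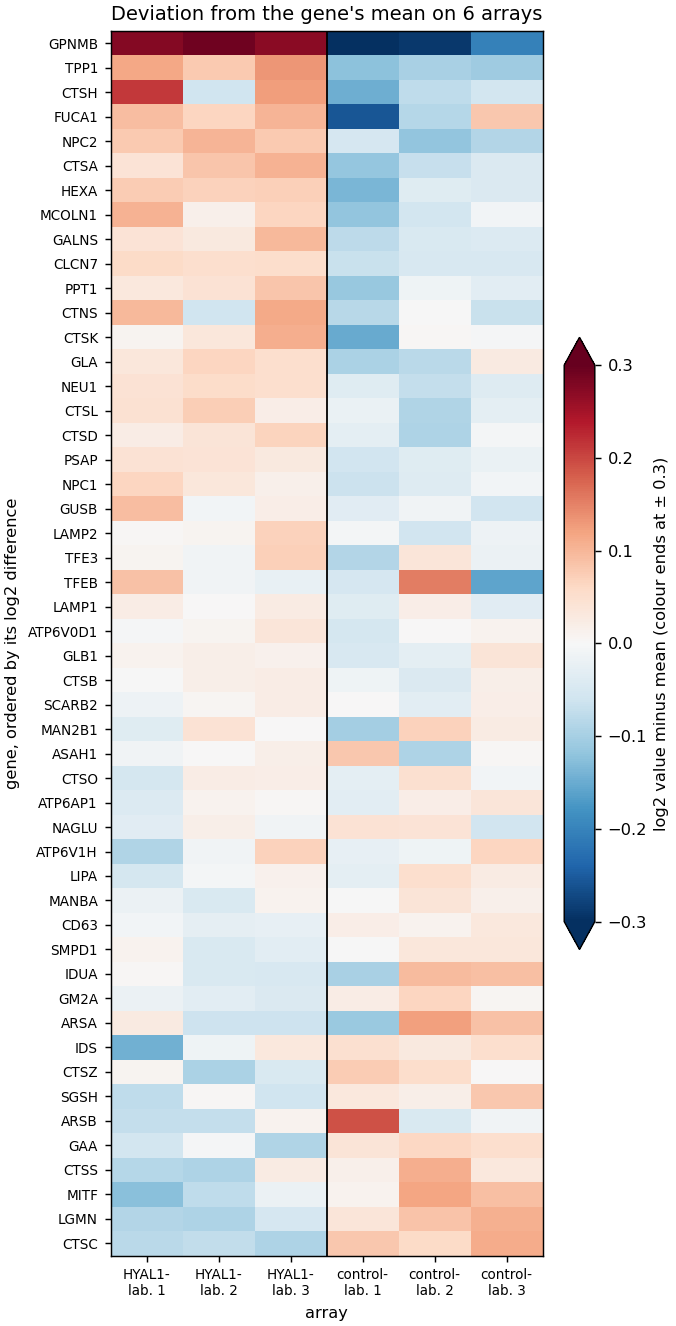
Each cell is a gene's log2 value on one array minus its mean over the 6 arrays, with genes ordered by their difference and colours ending at ± 0.3. GPNMB, TPP1, NPC2, CTSA, HEXA and CLCN7 were above their mean on all HYAL1-labelled arrays and below it on all control-labelled arrays, and CTSC and LGMN the reverse.

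GPNMB had the highest difference toward the HYAL1-labelled arrays of all 15277 genes. Its log2 values were 7.44, 7.46 and 7.44 in the HYAL1-labelled arrays and 6.82, 6.88 and 6.96 in the control-labelled arrays. The groups did not overlap, and the values of the control-labelled arrays were close to the background median. The difference was 0.56 (95% interval 0.46 to 0.66, adjusted p = 0.00383 from limma), or 1.47-fold. GPNMB was read by 3 further probe sets, each tested on its own among all 39341, where 1.42% passed (0.346% and 1.08% on the HYAL1-labelled and control-labelled sides). Probe set 2 gave 6.96, 6.95 and 6.89 against 6.11, 6.45 and 6.23, a difference of 0.67 ± 0.0816 (standard error) with an adjusted p of 0.0189. Probe set 3 gave 6.20, 6.19 and 6.21 against 5.40, 5.46 and 5.65, a difference of 0.69 ± 0.0632 with an adjusted p of 0.00892. Probe set 4 gave 5.53, 5.34 and 5.47 against 5.02, 5.00 and 4.99, a difference of 0.45 ± 0.0502 with an adjusted p of 0.0157, all from limma. All 4 probe sets passed in the same direction, but probe sets 3 and 4 lay below the background median in both groups and probe set 2 in the control-labelled arrays. The sizes of these 3 differences are therefore not measured between levels that both exceed this median, which is not a limit of detection. GPNMB passed in all 6 fits that left out 1 array (adjusted p from 0.0195 to 0.0379 from limma). With the replicate number as a block its adjusted p was 0.0527.

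MITF, the family member that drives melanocyte and osteoclast genes, lay on the other side. Its log2 values were 8.52, 8.56 and 8.62 in the HYAL1-labelled arrays and 8.65, 8.76 and 8.73 in the control-labelled arrays. Every HYAL1-labelled value was below every control-labelled value. The difference of -0.15 (standard error 0.0431) did not pass in the main comparison (adjusted p = 0.153 from limma) and passed with the variance trend (adjusted p = 0.0296). A further probe set gave 8.41, 8.36 and 8.37 against 8.51, 8.55 and 8.64, a difference of -0.18 (adjusted p = 0.0949 from limma among all probe sets).

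TFEB, the member best known for lysosome biogenesis, had 7.56, 7.46 and 7.45 against 7.42, 7.62 and 7.31, so that the groups overlapped and the control-labelled arrays spread widely. Its difference was 0.04 with a 95% interval from -0.15 to 0.22. TFE3, another member, had 7.68, 7.66 and 7.74 against 7.58, 7.71 and 7.65. Its difference was 0.05 with a 95% interval from -0.05 to 0.15, and a further probe set gave -0.04. The adjusted p was 0.852 for TFEB and 0.630 for TFE3 (limma).

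**Figure D4:**
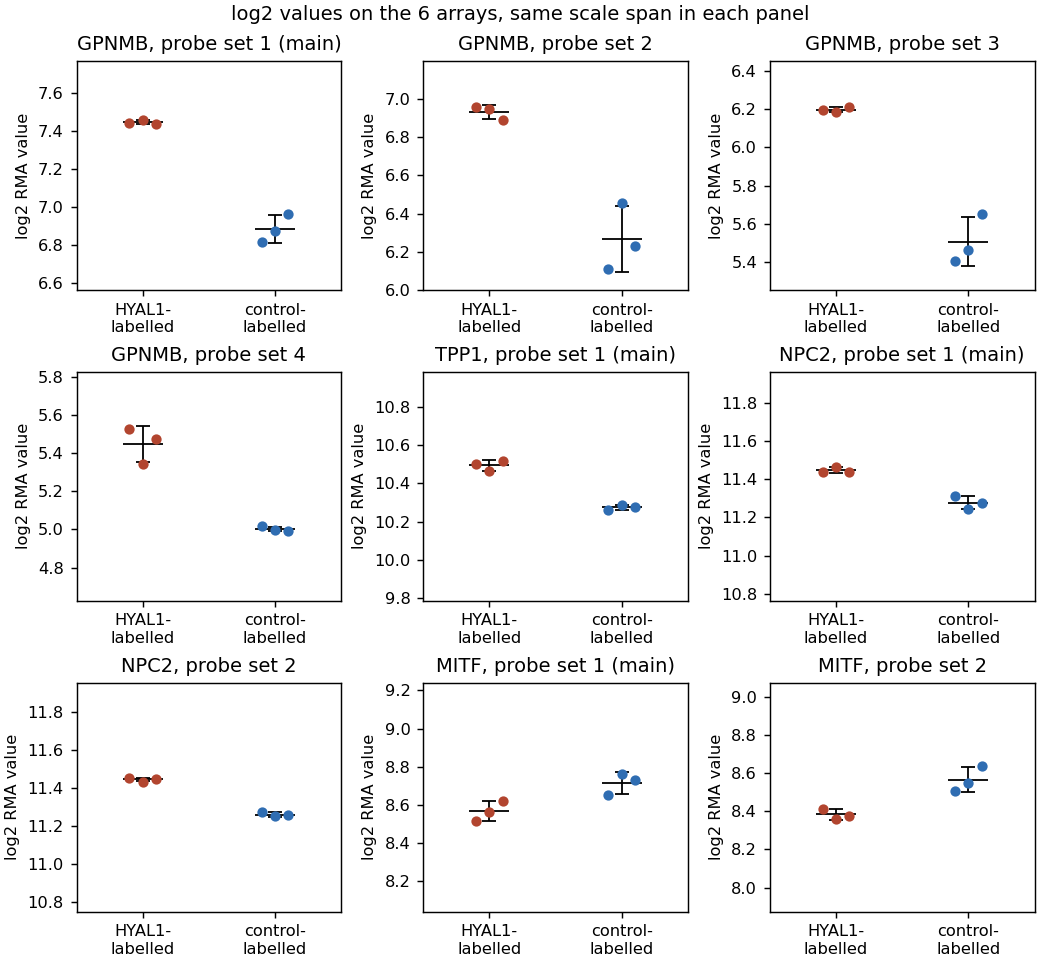
log2 RMA values (vertical axis, the same span of 1.2 in each panel) of the 6 arrays for probe sets of GPNMB, TPP1, NPC2 and MITF; points are arrays, and bars the mean ± SD of 3 arrays. In each panel the groups are apart, with GPNMB, TPP1 and NPC2 higher and MITF lower in the HYAL1-labelled arrays.

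The elements that MiT/TFE factors bind were looked up in promoter windows of RefSeq (GRCh38.p14), each running from 250 bases before to 50 after an annotated start site. Windows were given for 36 of the 50 genes. The E-box hexamer CACGTG, on either strand, lay in a window of 11 of the 36 genes (30.6%) and of 8.77% of all 27305 genes with a window. The CLEAR palindrome, which is this hexamer with GT before and AC after it, lay in 3 of them (8.33%) and in 0.421% of all genes. The M-box heptamer TCATGTG, which holds neither of them, lay in 6 of them (16.7%) and in 3.59% of all genes. Per window the shares over all 35116 windows were 7.26%, 0.353% and 2.92%. All these shares come from sequence alone and are not a result of the arrays. They cover genes with a window, and the genes measured were 15277. The windows that follow belong to the 2 genes that passed, to 5 of the genes with CACGTG whose groups were apart, and to CTSC. Of these 5, CTSA, GALNS and MCOLN1 lay toward the HYAL1-labelled and GAA and CD63 toward the control-labelled arrays. CTSD, NEU1 and CLCN7, whose windows are not shown, also held CACGTG and were apart toward the HYAL1-labelled arrays. CTSC is the gene of the 50 furthest to the control-labelled side. Capitals mark matches to these 3 motifs, and each sequence runs 5′ to 3′ on the strand of the gene.
GPNMB (chr7:23246525-23246824, + strand): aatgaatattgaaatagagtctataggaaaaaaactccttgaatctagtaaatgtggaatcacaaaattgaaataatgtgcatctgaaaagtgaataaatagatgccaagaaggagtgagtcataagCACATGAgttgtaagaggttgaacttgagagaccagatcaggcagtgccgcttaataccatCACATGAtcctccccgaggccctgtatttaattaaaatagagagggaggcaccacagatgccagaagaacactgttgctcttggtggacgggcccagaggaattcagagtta
TPP1 (chr11:6619373-6619672, - strand): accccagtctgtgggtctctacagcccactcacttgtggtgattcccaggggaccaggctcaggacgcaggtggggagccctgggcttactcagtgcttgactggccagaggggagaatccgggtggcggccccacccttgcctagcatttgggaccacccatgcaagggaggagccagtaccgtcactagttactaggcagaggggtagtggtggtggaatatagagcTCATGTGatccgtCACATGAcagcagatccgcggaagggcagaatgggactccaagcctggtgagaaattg
CTSA (chr20:45891085-45891384, + strand): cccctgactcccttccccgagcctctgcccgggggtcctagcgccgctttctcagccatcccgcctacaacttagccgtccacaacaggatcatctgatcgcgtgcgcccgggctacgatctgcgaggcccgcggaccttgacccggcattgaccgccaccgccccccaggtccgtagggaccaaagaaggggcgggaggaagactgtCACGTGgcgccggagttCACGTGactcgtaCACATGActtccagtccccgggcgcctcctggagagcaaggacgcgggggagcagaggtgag
GALNS (chr16:88856898-88857197, - strand): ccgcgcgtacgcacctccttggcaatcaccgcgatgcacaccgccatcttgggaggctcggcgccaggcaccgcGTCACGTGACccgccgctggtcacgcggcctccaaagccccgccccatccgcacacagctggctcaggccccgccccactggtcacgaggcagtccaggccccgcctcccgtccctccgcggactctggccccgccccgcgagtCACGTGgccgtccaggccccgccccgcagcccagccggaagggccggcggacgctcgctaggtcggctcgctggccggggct
MCOLN1 (chr19:7522374-7522673, + strand): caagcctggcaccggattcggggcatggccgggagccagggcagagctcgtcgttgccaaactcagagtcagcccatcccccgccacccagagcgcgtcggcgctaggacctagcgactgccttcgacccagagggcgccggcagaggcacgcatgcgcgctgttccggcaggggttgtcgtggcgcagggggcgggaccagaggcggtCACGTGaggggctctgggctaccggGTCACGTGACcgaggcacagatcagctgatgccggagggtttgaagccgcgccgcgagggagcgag
GAA (chr17:80101331-80101630, + strand): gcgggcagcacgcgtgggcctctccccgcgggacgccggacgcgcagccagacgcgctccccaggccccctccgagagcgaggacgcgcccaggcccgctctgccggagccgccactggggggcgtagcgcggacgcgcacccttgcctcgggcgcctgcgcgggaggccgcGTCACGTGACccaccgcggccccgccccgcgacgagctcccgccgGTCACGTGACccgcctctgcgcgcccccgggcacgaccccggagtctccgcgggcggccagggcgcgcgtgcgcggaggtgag
CD63 (chr12:55728960-55729259, - strand): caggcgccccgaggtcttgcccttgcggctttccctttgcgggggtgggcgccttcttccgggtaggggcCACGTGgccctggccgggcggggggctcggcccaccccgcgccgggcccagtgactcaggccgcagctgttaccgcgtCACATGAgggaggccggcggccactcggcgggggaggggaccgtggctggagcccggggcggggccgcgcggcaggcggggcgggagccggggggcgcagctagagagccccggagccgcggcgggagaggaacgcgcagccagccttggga
CTSC (chr11:88337687-88337986, - strand): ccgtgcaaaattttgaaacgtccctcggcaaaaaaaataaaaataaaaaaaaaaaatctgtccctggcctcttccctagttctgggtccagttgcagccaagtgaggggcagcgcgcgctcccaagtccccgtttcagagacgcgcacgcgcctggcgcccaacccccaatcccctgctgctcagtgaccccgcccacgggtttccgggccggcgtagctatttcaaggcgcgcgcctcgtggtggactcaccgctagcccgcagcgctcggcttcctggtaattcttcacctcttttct

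GPNMB held the M-box heptamer at positions -123 and -62 from its start site and TPP1 at -21 and -8, and neither held CACGTG. CTSA held CACGTG at -42 and -25 and the M-box heptamer at -12. GALNS and MCOLN1 each held 1 CLEAR palindrome and 1 further CACGTG. GAA held 2 CLEAR palindromes, at -78 and -33, and its difference was -0.10. CD63, shown by 1 of its 8 windows, held CACGTG at -180 and the M-box heptamer at -102, and its difference was -0.04. Genes on both sides held these motifs, but neither GAA nor CD63 passed (adjusted p = 0.198 and 0.517 from limma). CTSC held none of the 3 in this window. The 11 genes with CACGTG had a median difference of 0.09 (8 of 11 above 0), and the 25 without it 0.04 (16 of 25 above 0). The 3 genes with the CLEAR palindrome had a median of 0.11 (2 of 3 above 0), and the other 33 genes 0.04 (22 of 33 above 0). The 6 genes with the M-box heptamer had a median of 0.13 (5 of 6 above 0), and the other 30 genes 0.04 (19 of 30 above 0). These 6 include GPNMB and TPP1, the only genes of the 50 that passed, and the motifs were chosen with earlier results known. The rest of the 6 differed by 0.15 (CTSA), 0.10 (PPT1), 0.01 (SCARB2) and -0.04 (CD63). These medians describe the genes and were not tested, and a match of letters is not evidence of binding in these cells.

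**Figure D5:**
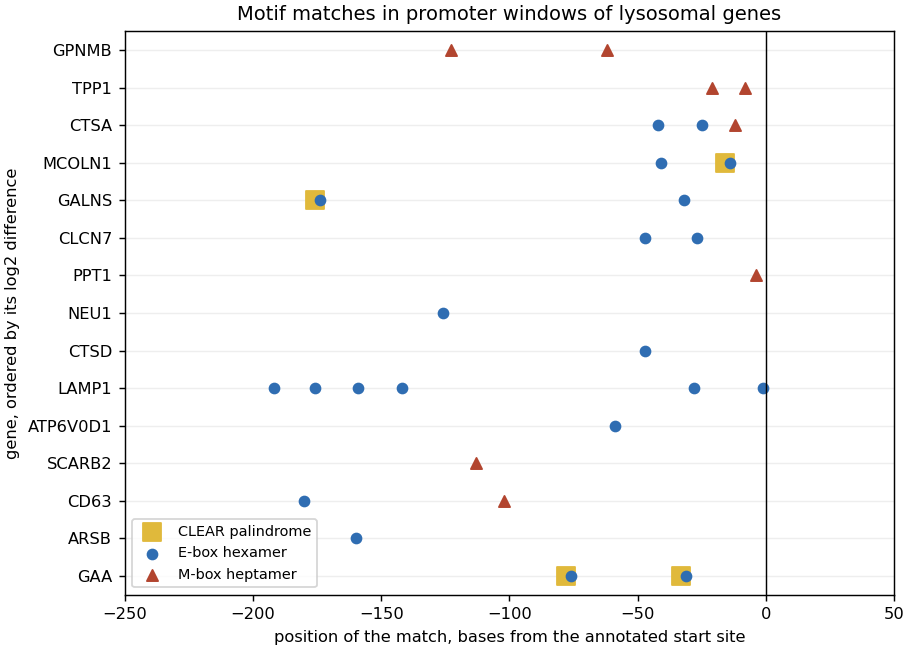
Positions of the 3 motifs (horizontal axis, bases from the annotated start site) in the 15 lysosomal genes whose promoter window held any, ordered by their log2 difference from high to low. GPNMB and TPP1, at the top, hold M-box matches only, and all matches begin before the start site.

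Among the 12 cathepsins and other peptidases, TPP1 was higher in the HYAL1-labelled arrays and the other 11 did not pass. TPP1, a serine protease that removes tripeptides and is deficient in a childhood neuronal ceroid lipofuscinosis, had 10.50, 10.46 and 10.52 against 10.26, 10.29 and 10.28. The groups were apart by several times the spread within either. The difference was 0.22 (standard error 0.0308, adjusted p = 0.0244 from limma), or 1.16-fold. All 9 probe sets of TPP1 lay on the HYAL1-labelled side, by 0.06 to 0.25, and 1 of them passed among all probe sets. Without any 1 array TPP1 missed the threshold in all 6 fits (adjusted p from 0.0755 to 0.107 from limma), and its difference stayed between 0.21 and 0.23.

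CTSC, a dipeptidyl peptidase that activates serine proteases of immune cells, had the lowest difference of the 50 genes. Its values were 11.43, 11.44 and 11.42 against 11.60, 11.57 and 11.63, and the groups were apart. The difference was -0.16 (standard error 0.0305, adjusted p = 0.0517 from limma), just outside the threshold, and its other 2 probe sets gave -0.19 and -0.16. It passed in 8 of 17 alternative analyses.

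LGMN, an endopeptidase that cuts after asparagine and matures other cathepsins, had 8.88, 8.88 and 8.92 against 9.01, 9.06 and 9.08, also without overlap. The difference was -0.15 (adjusted p = 0.0772 from limma), and all 6 probe sets lay on the control-labelled side, from -0.17 to -0.12. CTSA, the carboxypeptidase that stabilises the sialidase NEU1 and the galactosidase GLB1, ran the other way. It had 11.40, 11.44 and 11.46 against 11.24, 11.29 and 11.32, a difference of 0.15 (adjusted p = 0.0866 from limma).

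Of the broad endopeptidases, the aspartic protease CTSD differed by 0.09 and the cysteine proteases CTSL and CTSB by 0.09 and 0.03, all 3 toward the HYAL1-labelled arrays (adjusted p from 0.231 to 0.718 from limma). CTSK, the collagen-degrading protease of osteoclasts, differed by 0.10. The carboxypeptidase CTSZ differed by -0.09, CTSS, an enzyme of antigen-presenting cells, by -0.10, and CTSO by -0.01. The aminopeptidase CTSH differed by 0.19, but its other probe set gave -0.13, and both CTSH and CTSS lay below the background median. Of the 12 peptidases, 5 were apart toward the HYAL1-labelled and 2 toward the control-labelled arrays, beside 14.1% and 10.3% of all genes.

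Of the 9 enzymes of glycosaminoglycan breakdown 0 passed limma's test, and 2 were higher and 1 lower in the HYAL1-labelled arrays at an unadjusted p under 0.05. HEXA, the alpha subunit of the hexosaminidase that trims hyaluronan fragments and gangliosides, had 9.75, 9.74 and 9.75 against 9.54, 9.64 and 9.63. The HYAL1-labelled arrays were nearly identical and all above the others. The difference was 0.15 (standard error 0.0369, adjusted p = 0.115 from limma), and all 8 probe sets of HEXA lay on this side, by 0.08 to 0.18. GUSB, the glucuronidase that acts beside HEXA on hyaluronan fragments, had 8.26, 8.16 and 8.19 against 8.14, 8.16 and 8.11, a difference of 0.07 with a 95% interval from -0.02 to 0.16.

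GALNS, a sulfatase of keratan and chondroitin sulfate, had 9.71, 9.70 and 9.77 against 9.59, 9.63 and 9.63, a difference of 0.11 (adjusted p = 0.157 from limma). GLB1, the beta-galactosidase, differed by 0.03. The sulfatases SGSH, IDS and ARSB differed by -0.09, -0.08 and -0.09, the iduronidase IDUA by -0.06 and the glucosaminidase NAGLU by -0.02 (adjusted p from 0.273 to 0.857 from limma). All 5 probe sets of IDS and all 4 of ARSB lay on the control-labelled side, whereas the 4 of SGSH were split, from -0.09 to 0.20.

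In glycoprotein and glycogen breakdown, 0 of 5 genes passed limma's test. With limma 1 was higher and 1 lower at an unadjusted p under 0.05, beside 9.69% and 7.72% of all genes. The sialidase NEU1 had 8.67, 8.68 and 8.67 against 8.59, 8.55 and 8.59, a difference of 0.10 (adjusted p = 0.158 from limma). GAA, the glucosidase of glycogen, differed by -0.10 with its groups apart (adjusted p = 0.198), and its other probe set gave 0.02. The fucosidase FUCA1 differed by 0.17, at a low level and with control-labelled arrays from 5.93 to 6.27 that overlapped the other group. The mannosidases MAN2B1 and MANBA differed by 0.01 and -0.04.

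In sphingolipid and other lipid breakdown and transport, 0 of 10 genes passed in the main comparison, and 1 passed on a further probe set. With limma 4 were higher and 0 lower at an unadjusted p under 0.05, beside 9.69% and 7.72% of all genes. NPC2, the soluble protein that hands cholesterol to NPC1 for export from the lysosome, had 11.44, 11.46 and 11.44 against 11.31, 11.24 and 11.27. Its groups were apart, and the difference was 0.17 (standard error 0.0321, adjusted p = 0.0544 from limma). A further probe set gave 11.45, 11.43 and 11.45 against 11.27, 11.25 and 11.26, a difference of 0.18 (standard error 0.0305) that passed among all probe sets (adjusted p = 0.0403 from limma). NPC1, the membrane transporter, differed by 0.07 at a low level, and its other probe set gave -0.16.

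PSAP, the precursor of the saposins that activate sphingolipid hydrolases, had 12.48, 12.48 and 12.47 against 12.38, 12.40 and 12.42, a small difference of 0.08 without overlap (adjusted p = 0.246 from limma). All 4 of its probe sets lay on the same side. The thioesterase PPT1, another ceroid lipofuscinosis gene, differed by 0.10 with all 6 probe sets on the HYAL1-labelled side, and the galactosidase GLA by 0.10 with all 3. GM2A, the activator of HEXA for gangliosides, went against HEXA with -0.06, and its 4 probe sets ran from -0.19 to 0.01. The ceramidase ASAH1, the lipase LIPA, the sphingomyelinase SMPD1 and the sulfatase ARSA differed by 0.01, -0.03, -0.04 and -0.06, and of these only SMPD1 rests on 1 probe set.

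Of the 7 membrane proteins and transporters, 0 passed limma's test. With limma 2 were higher and 0 lower at an unadjusted p under 0.05, beside 9.69% and 7.72% of all genes. CLCN7, the chloride and proton exchanger of lysosomes, had 8.92, 8.91 and 8.91 against 8.80, 8.81 and 8.81. The spread within groups was small and the groups were apart. The difference was 0.11 (standard error 0.0283, adjusted p = 0.121 from limma), and its other probe set gave 0.12. MCOLN1, the calcium channel that signals to TFEB, had 9.07, 8.98 and 9.03 against 8.85, 8.91 and 8.96, a difference of 0.12 (adjusted p = 0.200 from limma).

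RNA for the most abundant structural proteins of the lysosomal membrane differed little between groups. LAMP1 and LAMP2 differed by 0.03 and 0.05, with 95% intervals from -0.04 to 0.11 and from -0.03 to 0.13, and the 9 probe sets of LAMP2 gave 0.02 to 0.10. The tetraspanin CD63 differed by -0.04 and SCARB2, the carrier of glucocerebrosidase, by 0.01. The cystine exporter CTNS differed by 0.10, with 7 of its 8 probe sets on the HYAL1-labelled side. The V-ATPase subunits ATP6V0D1, ATP6V1H and ATP6AP1 differed by 0.03, -0.02 and -0.02, with the smallest median size of any role, and limma called 0 of 3 (0 at an unadjusted p under 0.05).

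Of the 38 genes with more than 1 probe set, 26 had all of them on the same side and 12 on both sides. Of the 105 probe sets that were not used above, 75 lay on the HYAL1-labelled side (71.4%, against 55.7% of all probe sets) and 44 had groups apart (41.9%, against 23.9%). Probe sets of a gene share transcripts and arrays and are no replicates.

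Further genes of the pathway, 132 measured of 149 listed, were read in the same fit. One passed, CLN3, a lysosomal membrane protein lost in juvenile ceroid lipofuscinosis. It had 9.15, 9.17 and 9.14 against 8.97, 8.99 and 9.01, a difference of 0.17 ± 0.0302 (standard error; limma, adjusted p = 0.0493), higher in the HYAL1-labelled arrays. CLN3 passed in 6 of 17 alternative analyses. It missed the threshold without any 1 array (adjusted p from 0.117 to 0.197 from limma) and after median centring, where 0 of the 132 passed. It also missed it with averaged probe sets, with each probe set tested on its own, in the unpaired test and with the replicate number as a block. At an unadjusted p under 0.05 with limma the 132 genes numbered 9 higher and 9 lower, beside 9.69% and 7.72% of all genes. These shares also stand beside the counts by role that follow. The groups were apart in 32 of the 132 (24.2%), beside 24.4% of all genes. The median difference of the 132 was 0.01.

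By role, 0 of 18 other hydrolases passed with limma and 3 were lower in the HYAL1-labelled arrays at an unadjusted p under 0.05, among them the phospholipase PLA2G15 at -0.18 (adjusted p = 0.0911 from limma). Of 26 other membrane proteins CLN3 passed, and OSTM1, the partner subunit of CLCN7, differed by -0.17 (adjusted p = 0.0709), opposite to CLCN7 itself. Of 14 other V-ATPase subunits 0 passed and 0 had an unadjusted p under 0.05 with limma, and their differences ran from -0.04 to 0.09. Of 19 genes of enzyme delivery 0 passed with limma (2 higher and 1 lower at an unadjusted p under 0.05), with GNPTAB, which starts the mannose 6-phosphate tag, at -0.10 and NAGPA, which uncovers it, at 0.09.

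Of 19 genes that control where TFEB and TFE3 lie in the cell, 0 passed with limma and 0 had an unadjusted p under 0.05. They include mTORC1, Rag and FLCN genes, which favour retention in the cytosol, and the TSC and calcineurin genes, which act against it. The calcineurin subunit PPP3R1 passed on a further probe set, higher in the HYAL1-labelled arrays, when each probe set was tested on its own. Of 21 autophagy genes 0 passed with limma (2 higher and 2 lower at an unadjusted p under 0.05), and SQSTM1, the cargo receptor p62, differed by 0.11 (adjusted p = 0.116) with 12.13, 12.14 and 12.15 against 12.02, 12.03 and 12.04. Of 6 cystatins, which inhibit cathepsins, 0 passed and 0 had an unadjusted p under 0.05 with limma. Among 9 partners of GPNMB and MITF and pigment genes 0 passed (2 higher and 2 lower at an unadjusted p under 0.05), and MLPH, a melanosome transport protein, was the closest at 0.16 (adjusted p = 0.0539 from limma).

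All 14 fibroblast markers exceeded the background median on every array. Their summed linear level was 62912 to 63752 in the HYAL1-labelled and 65332 to 66367 in the control-labelled arrays, and the part of this shift in the results was not tested. Limma called 1 of the 14, COL1A1, lower in the HYAL1-labelled arrays with a difference of -0.27 (adjusted p = 0.0152). At an unadjusted p under 0.05 with limma the markers numbered 1 higher and 5 lower, beside 9.69% and 7.72% of all genes. Groups were apart in 3 toward the HYAL1-labelled arrays (21.4%), with POSTN at 0.15, beside 14.1% of all genes. They were apart in 8 toward the control-labelled arrays (57.1%), with LUM at -0.20, beside 10.3% of all genes. Since GPNMB is a macrophage and osteoclast gene in other settings, markers of such cells were read as well. Of 9 measured macrophage and leukocyte markers 8 lay below the background median on all arrays, and their summed level was 433 to 454 in the HYAL1-labelled and 428 to 439 in the control-labelled arrays. All 4 measured melanocyte markers and 2 of 3 osteoclast markers lay below it too. The summed levels of both lists overlapped between groups, at 190 to 212 against 196 to 204 for melanocytes and at 191 to 206 against 184 to 192 for osteoclasts. Epithelial markers summed to 1361 to 1370 against 1350 to 1388, with 5 of 9 below the background median on all arrays, and endothelial markers to 585 to 618 against 618 to 639, with 5 of 6 below and no overlap between groups. In each of these 5 lists limma called 0 markers. At an unadjusted p under 0.05 the calls were 2 macrophage and leukocyte, 1 osteoclast and 2 epithelial markers on the HYAL1-labelled side, 1 melanocyte and 1 epithelial marker on the other, and 0 endothelial markers. The part of these cell types in the results was not tested.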

How the data were processed

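Processed values of 6 PrimeView arrays were used. The deposited values are log2 intensities that the authors computed with RMA (background correction, quantile normalization, summary per probe set), with Affymetrix Power Tools according to the submitters' notes (version not given in the sources used here). Of 39341 probe sets, 36097 have 1 gene symbol in the platform annotation, 1397 several and 1847 none. Symbols were compared with RefSeq by gene ID, which changed 0 of them. HYAL1 has no symbol there, and its probe set was found by its values in a supplementary table, within 0.001. Each gene was read by the probe set of highest mean, which left 15277 genes.

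Groups came from the sample titles. They were compared with limma 3.58.1 in R 4.3.3 (linear model, empirical Bayes with 1 prior variance and 3.25 prior degrees of freedom, Benjamini-Hochberg over all genes). For HYAL1 an exact permutation test was added. The fit was tested on simulated data. Python 3.11.15 with pandas 2.3.3 and matplotlib 3.10.9 served for summaries and plots. The number of arrays limits the precision.

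The genes, lists, motifs and tests were chosen with earlier results of these data known. Named with values were GPNMB and the MiT/TFE factors, every gene that passed on any probe set, the largest differences of each role in each direction, and genes whose probe sets disagree. The rest of the 50 were added. Other genes of the pathway are named where they passed or, after their values were seen, where they came closest or pair with a gene described. In 17 alternatives the choice of probe sets, a filter that drops the 30% of genes with the lowest means, the normalization, the variance model, array weights, the unpaired test of a figure legend, a replicate block and the omission of single arrays were tried.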

Additional observations from a re-analysis of the deposited data

How the results depend on the processing

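HYAL1 and GPNMB kept their direction in all 17 alternatives, and TPP1 did too. The numbers of all genes, of the 50 lysosomal genes and of the 132 further genes that passed were 253, 2 and 1. They became 729, 4 and 6 with the probe set of lowest p, 673, 8 and 5 after dropping the 30% of genes with the lowest means, 1024, 12 and 9 with a variance trend, 1079, 13 and 8 with a robust trend and 406, 5 and 3 with array weights. In the same order, averaged probe sets gave 360, 4 and 2, renewed quantile normalization 357, 5 and 3, and median centring 273, 4 and 0. The unpaired test named in a figure legend called 90 of all genes. Leaving out each array in turn gave 15 to 52 of all genes, 1 of the 50 and 0 of the 132. The cause of these shifts was not tested. Signs turned for 11 genes, of which 0 passed in the main comparison. TFE3, CTSO, SGSH, ASAH1, NPC1, SCARB2 and CTNS among them have probe sets on both sides. With averaged probe sets CTSO became 0.028, SGSH 0.037, ASAH1 -0.012 and NPC1 -0.041, and with the probe set of lowest p TFE3 -0.041, CTSO 0.063, SGSH 0.20, ASAH1 -0.14 and CTNS -0.10. With array weights CTSO became 0.0036 and NAGLU 0.0041, and with median centring MAN2B1 -0.0023, ASAH1 -0.0030 and SCARB2 -0.0011. Leaving out 1 array turned TFEB (-0.033 to 0.12), CTSO (-0.023 to 0.018), MAN2B1 (-0.044 to 0.042), ASAH1 (-0.039 to 0.047), SCARB2 (-0.0069 to 0.020) and ATP6V1H (-0.059 to 0.020), where the ranges cover the 6 fits.

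With the replicate number as a block (the replicate block), 1 of all genes passed, and 0 of the 50 and 0 of the 132. Same-numbered arrays deviated together at r = 0.06, -0.02 and 0.24, and differently numbered ones at r from -0.23 to 0.16. With 3 arrays per group these values cannot decide whether the numbers pair the arrays.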
